A study of Mus musculus with 31 samples.

Results

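The proteasome genes were followed in the forebrain of 5-day-old mice after MgSO4, hypoxia-ischemia (HI), or both. They were chosen by name alone, as the genes on the array whose symbol starts with Psma, Psmb, Psmc, Psmd, Psme, Psmf or Psmg, which gave 50 of 19898 named genes. By role they comprised 7 subunits of the alpha ring, 7 of the beta ring, 6 ATPases, 3 other subunits of the base and 8 of the lid. A further 3 genes encode chaperones that assemble the base, 4 encode chaperones that assemble the core, 2 encode the activators PA28-gamma and PA200 (Psme3 and Psme4), and 1 encodes the inhibitor Psmf1. The 5 immunoproteasome genes (Psmb8, Psmb9, Psmb10, Psme1 and Psme2) were kept apart from these 41 constitutive members. Psma8 and Psmb11 are variants of core subunits known from testis and thymus. Psmc3ip and Psme3ip1 share the name but are no subunits: the first encodes a partner of the meiotic recombinases and the second a partner of Psme3.

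The proteasome destroys proteins that carry a ubiquitin chain. Its core is a barrel of stacked alpha and beta rings with the proteolytic sites inside, and its regulatory particle has a base of ATPases that unfold the substrate and a lid that removes the ubiquitin. Interferon replaces the catalytic beta subunits with those of the immunoproteasome, which shapes peptides for antigen presentation and which in brain is mainly known from microglia and other immune cells. When proteasome activity falls, the transcription factor Nfe2l1 is cut free by Ddi2 and raises the mRNA of nearly all constitutive subunits together.

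The animals were NMRI mice, and every sample was RNA pooled from the hemispheres of 6 animals, male and female. Each of 31 Agilent arrays carried 2 samples, one labelled with Cy5 and one with Cy3, and the values below are log2(Cy5/Cy3) of the processed signals. In the Mg groups, pups given 600 mg/kg MgSO4 (Cy5) were set against control pups (Cy3) with 4 arrays each at 3, 12 and 24 h after the injection and 7 at 6 h. The injection is subcutaneous in the labels and intraperitoneal in the methods, and the controls, from the same litters, are called naive in one field and PBS-treated in another. In the HI groups (RV PBS in the labels, 3 h and 12 h, 3 arrays each), pups with permanent right carotid ligature and hypoxia (Cy5) were set against naive controls (Cy3); their Cy5 treatment field names MgSO4, against their titles, sources and the methods. In the MgHI groups (RV Mg, 3 h and 12 h, 3 arrays each), the labels place MgSO4-treated pups with HI in Cy5 and MgSO4-treated naive pups in Cy3, while the methods describe MgSO4-treated HI against HI, and the legends place the treated animals in Cy3. The direction of the MgHI ratios is therefore not settled, and they are given as higher in Cy5 or in Cy3; the published direction may be the opposite.

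No dyes were swapped, so a dye effect of a probe and an effect of the condition cannot be told apart within a group. Among the 7 arrays at 6 h, replicates 1, 2 and 6 correlated with replicates 3 and 7 at r = -0.46 to -0.26 over all tested probes, 6 of 21 pairs of that group lay below -0.3, and directions at 6 h are not settled either. Between 45.2% and 69.7% of spots were well above background in Cy3 and between 54.4% and 70.2% in Cy5. The markers of neurons (5 of 5), astrocytes (4 of 4) and the oligodendrocyte lineage (5 of 5) were above background in Cy3 on all 31 arrays. The number of arrays limits the precision, and since each is a pair of pools, p-values measure the spread between these pools. In such bulk samples, fewer cells of a type and less RNA per cell cannot be told apart.

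Proteasome mRNA was abundant: 45 of the 50 members were well above background in both channels on all 31 arrays, and 48 could be tested in every comparison. Psma8 was above background on 0 of 31 arrays in either channel and Psmb11 on 1 array in Cy3 and 2 in Cy5, so neither was tested. For the tested members, the median log2 ratio of the 41 constitutive genes on an array stayed between -0.16 and 0.07 on all 31 arrays. The constitutive members were also less scattered than other genes: the SD of their log2 ratios within an array was 0.16 to 0.41, against 0.26 to 0.61 for all tested genes, and it was the smaller of the pair on 31 of 31 arrays. No set of genes of like signal was compared, so the part of signal strength in this smaller scatter was not tested. The constitutive median was below that of all tested genes on 20 of 31 arrays. The 5 immunoproteasome genes gave medians from -0.55 to 0.24, with the highest on an array of the 6 h group and the lowest on an MgHI array at 12 h.

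**Figure D1:**
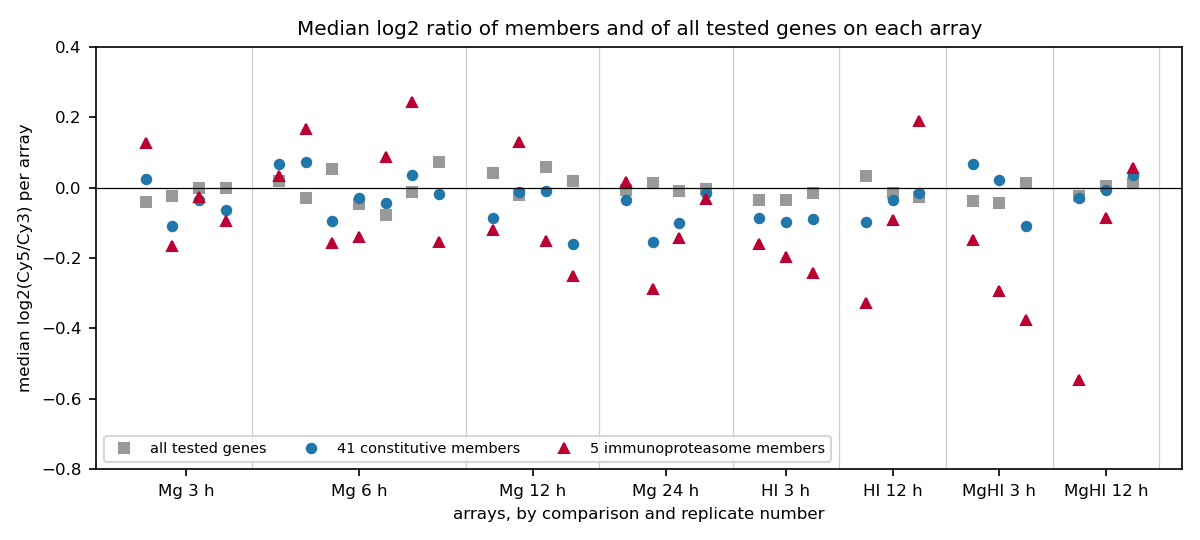
Median log2(Cy5/Cy3) on each array (y axis) for the 41 constitutive proteasome genes (circles), the 5 immunoproteasome genes (triangles) and all tested genes (squares), with the 31 arrays along the x axis in order of group and replicate number. The circles stay between -0.16 and 0.07, close to the squares, and the triangles range from -0.55 to 0.24. The sets differ in size and in probe signal, so the widths of these ranges are not compared.

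At 3 h of HI, 6 of the 48 members passed the test (limma, Benjamini-Hochberg adjusted p under 0.05), in a comparison in which 14.9% of all 14541 tested genes did: Psme3 rose, and Psma5, Psma7, Psmb8, Psme2 and Psmg1 fell. In the MgHI groups at 3 h, 3 of 48 (Psme3, Psmf1 and Psmd9) were higher in Cy5, where 8.94% of all tested genes were called. Later, at 12 h, 0 of 48 were called in HI (0.0137% of all tested genes) and 0 of 48 in MgHI (0%). After MgSO4 alone, 0 of 48 were called at 3, 6, 12 or 24 h, where 0%, 0.0365%, 0% and 0.00715% of all tested genes were.

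Without adjustment, at a limma p under 0.05, more members passed; the share of all tested genes stands beside each count. In HI, 3 members were higher and 15 lower at 3 h, where 37.2% of all tested genes passed, and 3 higher and 7 lower at 12 h (27.9%). In MgHI, 9 were higher in Cy5 and 7 lower at 3 h (26.5%), and 7 higher and 6 lower at 12 h (24.2%). After MgSO4, 3, 3, 4 and 8 members passed at 3, 6, 12 and 24 h, against 9.21%, 13.4%, 15.9% and 11.3% of all tested genes. The gene-by-gene test that the methods name, with Benjamini-Hochberg adjustment, called 0 members in each of the 8 groups. Unadjusted, it passed 21 of 48 at 3 h and 10 at 12 h of HI, where 25.9% and 18.5% of all tested genes passed, and 16 and 11 in MgHI (17.8% and 15.1%). After MgSO4 it passed 10, 8, 6 and 7 at 3, 6, 12 and 24 h, against 10%, 14.2%, 11.9% and 11.1% of all tested genes.

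As a family, the members shifted little. The median of the 48 mean log2 ratios was -0.09 at 3 h of HI against -0.03 for all tested genes. Of the 48, 11 were above 0, as were 45.1% of all tested genes. At 12 h of HI the median was -0.05 against 0.00, with 20 of 48 above 0, and the share of all tested genes above 0 is not given here. In the MgHI groups the median was -0.02 at 3 h and -0.01 at 12 h, against -0.04 and -0.01. After MgSO4 it was -0.05, -0.00, -0.09 and -0.06 at 3, 6, 12 and 24 h, against -0.01, -0.00, 0.02 and -0.01. The median size of the mean change, without its sign, was 0.11 for the members and 0.15 for all tested genes at 3 h of HI, and 0.19 against 0.24 at 12 h of HI.

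**Figure D2:**
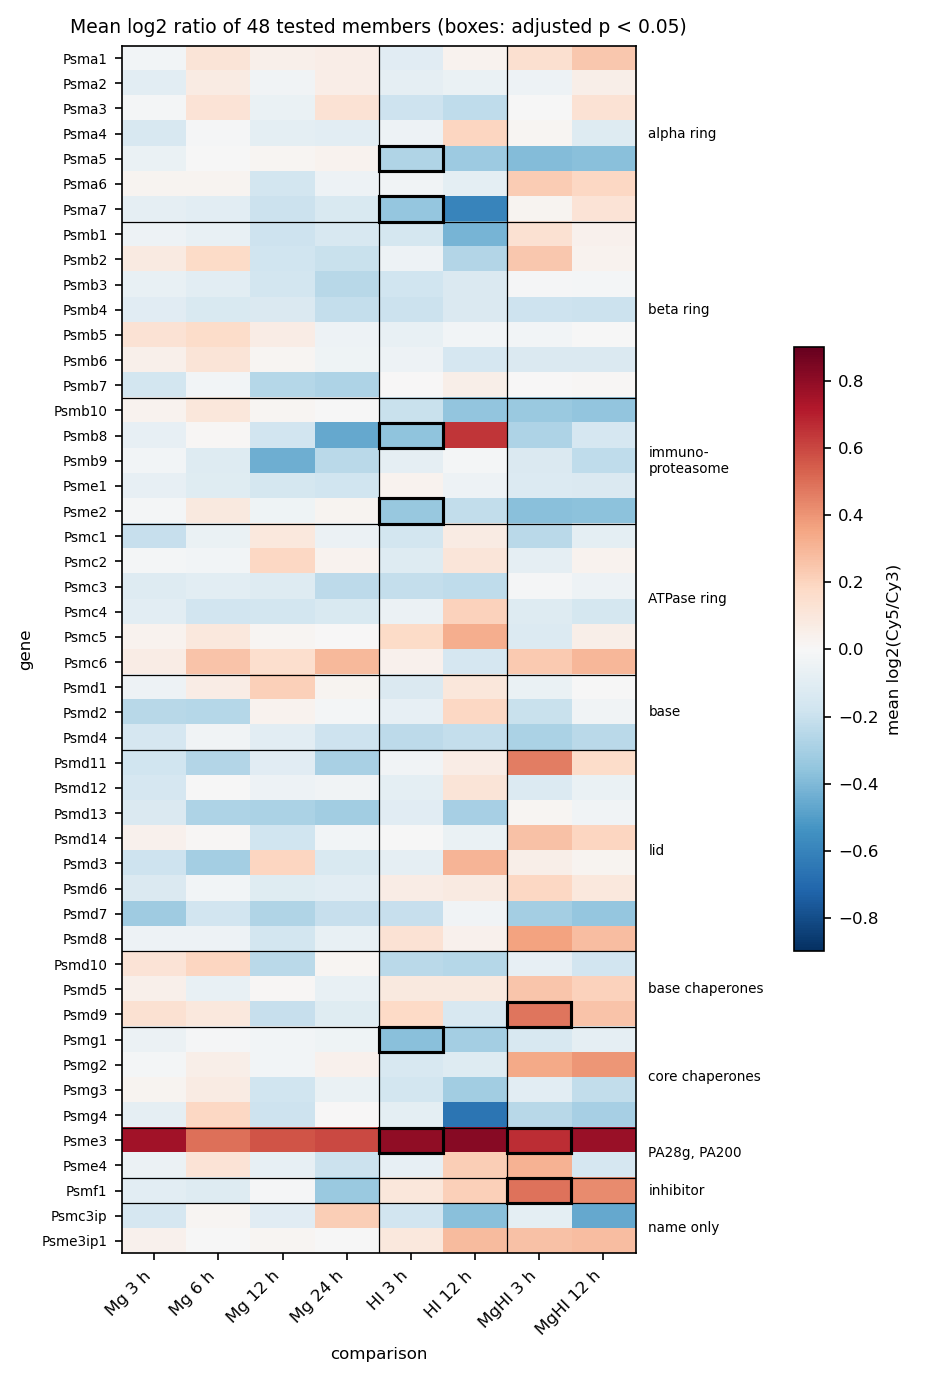
Mean log2(Cy5/Cy3) of the 48 tested members (rows, grouped by role, y axis) in the 8 groups (columns, x axis), red where Cy5 was higher and blue where it was lower; the black frames mark the adjusted p under 0.05. The row of Psme3 is red in all 8 columns, and 6 frames stand in the column of HI at 3 h and 3 in that of MgHI at 3 h.

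Psme3 had the largest mean log2 ratio, without its sign, of the 48 tested members in each of the 8 groups. It encodes PA28-gamma, a nuclear ring that opens the core without ATP and degrades regulators such as cell cycle inhibitors. After 3 h of HI its log2 ratios on the 3 arrays were 0.78, 0.84 and 0.78, with a mean of 0.80 ± 0.04 (SD, n = 3), which is 1.74-fold (limma adjusted p = 0.0124). After 12 h of HI they were 0.82, 0.81 and 0.83, with a mean of 0.82 ± 0.01 (SD, n = 3; limma adjusted p = 0.0734). All 6 arrays of HI lay between 0.78 and 0.84. In MgHI, Psme3 was also higher in Cy5, at 0.57, 0.74 and 0.68 after 3 h (limma adjusted p = 0.0164) and 0.90, 0.72 and 0.70 after 12 h (limma adjusted p = 0.0829).

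Psme3 was also higher in Cy5 on every array of MgSO4 alone. It measured 0.71, 0.96, 0.70 and 0.66 at 3 h, and 0.30 (lowest), 0.50 (median) and 0.67 (highest) over the 7 arrays at 6 h. At 12 h it measured 0.58, 0.68, 0.44 and 0.56, and at 24 h 0.58, 0.76, 0.44 and 0.59. These 4 groups overlapped each other, and the arrays at 3 h, with a mean of 0.76 ± 0.13 (SD, n = 4), overlapped those of HI. None of the 4 passed the test (limma adjusted p = 0.183, 0.105, 0.267 and 0.243). With normexp background correction and loess in place of the scanner's processed signals, Psme3 was called at 3 h of MgSO4, at 0.74 (limma adjusted p = 0.0237), and its means at 6 and 12 h were smaller, at 0.33 and 0.36. Among the 48 tested members, Psme3 alone was positive on 31 of 31 arrays, which 0.557% of 13105 genes tested over all arrays also were. An effect of the dye on this probe and an effect of the conditions cannot be told apart.

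A dye effect shared by all arrays drops out of the differences between groups, and for Psme3 none of these passed the test with the ratios taken as labelled. The comparisons of HI with Mg and of HI with MgHI were added after the data had been seen. The HI and Mg arrays shared no slide and no scan day. A difference between these groups and one between slides or scan days therefore cannot be told apart. Times also differ in kind, as HI is timed from the end of hypoxia and Mg from the injection. The ratio in HI exceeded that in Mg by 0.04 (SE 0.10, limma adjusted p = 0.883) at 3 h and by 0.26 (SE 0.13, limma adjusted p = 0.508) at 12 h. It exceeded that in MgHI by 0.13 (SE 0.10, limma adjusted p = 0.423) at 3 h and by 0.04 (SE 0.13, limma adjusted p = 0.881) at 12 h. With the sign of the MgHI ratios turned, since their direction is not settled, the last pair of differences was 1.47 and 1.60 (limma adjusted p = 0.000901 and 0.00812), and a dye effect would not drop out of them. From 3 h to 12 h of HI it moved by 0.02 (SE 0.10, limma adjusted p = 0.929). In HI against Mg, 0 of 48 members were called at 3 h (0.703% of all tested genes) and 0 at 12 h (0.0475%), with 6 and 5 at an unadjusted p under 0.05, as were 15.9% and 12.2% of all tested genes.

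A single other member, Psmb4, kept 1 sign on all 31 arrays. Psmb4 is a structural subunit of the beta ring without proteolytic activity. It ran from -0.37 to -0.01, with a median of -0.15, and 0.061% of the 13105 genes were lower on every array. Its SD over the 31 arrays was 0.08, the smallest of any member. It was not called in any group, and its lowest adjusted p was 0.0883 (limma), at 3 h of HI, where it measured -0.16, -0.21 and -0.21.

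**Figure D3:**
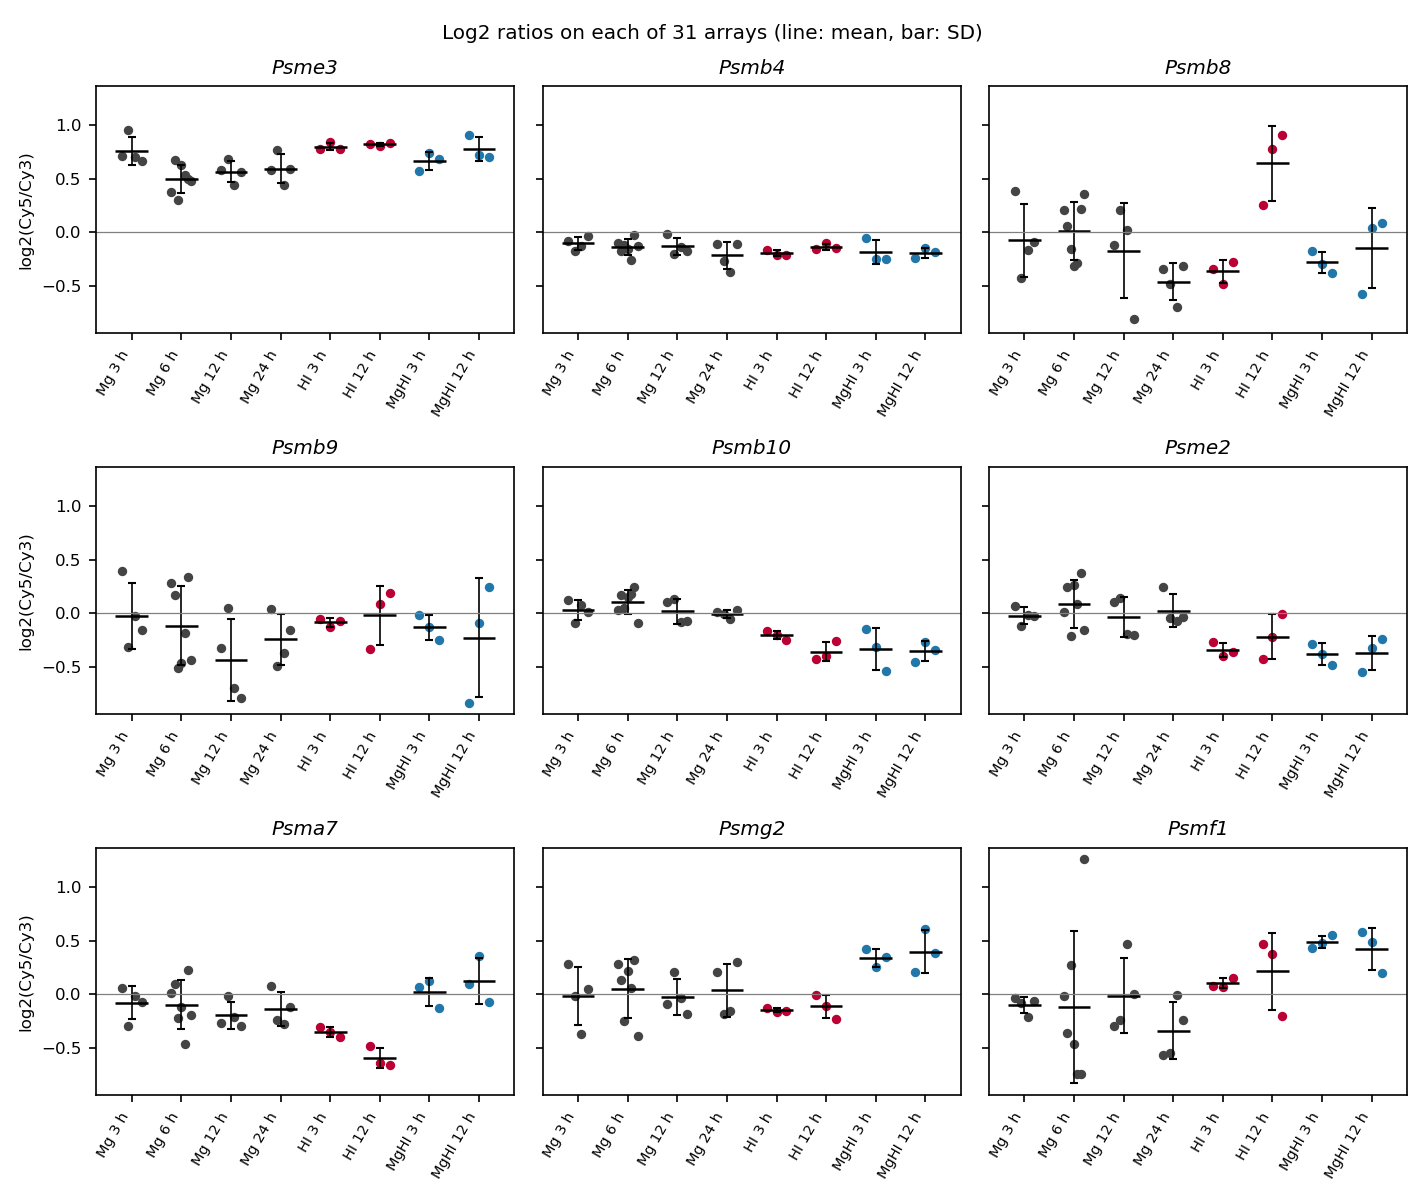
Log2(Cy5/Cy3) of 9 members on each array (points, y axis) by group (x axis), in grey for MgSO4 alone, red for HI and blue for MgHI, with the mean as a line and the SD as a bar. Psme3 lies between 0.30 and 0.96 on all 31 arrays, Psmb4 between -0.37 and -0.01, and Psmb8 rises from below 0 at 3 h to above 0 at 12 h of HI.

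Among the immunoproteasome genes, Psmb8 and Psme2 fell at 3 h of HI. The probe of Psmb8 was the dimmest of those that stand for the 48 tested members, at a mean log2 signal of 6.36. It was above background in Cy3 on 30 of 31 arrays. Psmb8 encodes the catalytic subunit that replaces Psmb5. It measured -0.34, -0.48 and -0.27 at 3 h, a mean of -0.36 ± 0.10 (SD, n = 3; limma adjusted p = 0.0381). At 12 h it measured 0.25, 0.77 and 0.91, a mean of 0.64 ± 0.35 (SD, n = 3; limma adjusted p = 0.1). The 3 arrays at 3 h were all below 0 and the 3 at 12 h all above it. The difference between the times was 1.01 (SE 0.19, unadjusted p = 0.0012, limma adjusted p = 0.111), the largest of any member, and it did not pass the test, as 0 of 48 members did (0% of all tested genes). At an unadjusted p under 0.05 there were 3 members and 16.7% of all tested genes. Without replicate 1, Psmb8 was called at 12 h, at 0.84 (limma adjusted p = 0.0292). Under normexp and loess its mean was -0.13 at 3 h of HI, no longer called (limma adjusted p = 0.119), and 0.37 at 12 h (limma adjusted p = 0.0755).

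Psmb8 was lower in Cy5 at 3 h of MgHI and on both sides of 0 at 12 h. It measured -0.17, -0.29 and -0.38 at 3 h of MgHI and -0.58, 0.04 and 0.09 at 12 h. At 24 h of MgSO4 all 4 arrays were below 0, at -0.34, -0.48, -0.69 and -0.32 (limma adjusted p = 0.302), while the earlier Mg groups had arrays on both sides of 0. Under normexp and loess its means at 3 h of MgHI and at 24 h of MgSO4 were -0.10 and -0.13. At 12 h the HI arrays exceeded the MgHI arrays by 0.79 (SE 0.25, limma adjusted p = 0.139), a difference added after the data had been seen, for which 0.00667% of all tested genes were called. It was called there with the replicate number as a block, for which the share of all tested genes called is not given here. With the sign of the MgHI ratios turned, the difference was 0.49 (limma adjusted p = 0.202). For MgHI at 12 h against 3 h, 0 of 48 members were called (0% of all tested genes). At an unadjusted p under 0.05, 0 of 48 passed, as did 3.55% of all tested genes.

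Psme2, which encodes a subunit of the interferon-induced activator ring, measured -0.27, -0.40 and -0.36 at 3 h of HI, a mean of -0.34 ± 0.07 (SD, n = 3; limma adjusted p = 0.0362). Its second, dimmer probe gave -0.22 there (limma adjusted p = 0.0665). In HI at 12 h the brighter probe measured -0.43, -0.22 and -0.01 (limma adjusted p = 0.334). In MgHI it was lower in Cy5 on all 6 arrays, at -0.28, -0.38 and -0.48 at 3 h and -0.55, -0.33 and -0.24 at 12 h, whereas the second probe averaged 0.02 and -0.04. The probes of Psme2 thus disagreed in MgHI. Over the 19 arrays of MgSO4 alone Psme2 had either sign.

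The other immunoproteasome genes did not pass the test. Psmb10, the catalytic subunit that replaces Psmb7, measured -0.16, -0.20 and -0.24 at 3 h and -0.42, -0.39 and -0.25 at 12 h of HI (limma adjusted p = 0.0848 and 0.136). It was below 0 on all 12 arrays of HI and MgHI, as were 5 other members (Psma5, Psmb4, Psmd4, Psme2 and Psmg1), and 4.81% of 14141 genes. This takes the MgHI ratios as labelled, and an effect of the dye and one of the conditions cannot be told apart. Psmb9, which replaces Psmb6, measured -0.06, -0.13 and -0.07 at 3 h and -0.33, 0.09 and 0.19 at 12 h of HI, on both sides of 0. Its probe was also dim, at a mean log2 signal of 7.30. Psme1, the other subunit of the interferon-induced ring, measured -0.05, 0.13 and 0.02 at 3 h and -0.27, -0.09 and 0.23 at 12 h.

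The genes of antigen processing, which interferon raises along with the immunoproteasome, gave no call in HI: 0 of 7 tested were called at 3 h and 0 of 8 at 12 h. Their median at 12 h of HI was 0.37 against 0.00 for all tested genes, and 5 of 8 were higher at an unadjusted p under 0.05, as were 14% of all tested genes. From the lowest to the highest array, the peptide transporter subunit Tap2 measured 0.28, 0.74 and 0.77 there (limma adjusted p = 0.0962). In MgHI at 3 h, where 8.94% of all tested genes were called, Tap1 and H2-D1 were higher in Cy5 and Nlrc5, an activator of these genes, was lower. Tap1 measured 0.97, 1.19 and 1.28 (limma adjusted p = 0.00811), H2-D1 averaged 0.50 (limma adjusted p = 0.0325) and Nlrc5 -0.59 (limma adjusted p = 0.0271).

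Some microglial and neutrophil markers moved in the same arrays, and at 3 h of HI 14.9% of all tested genes were called. At 3 h of HI the microglial gene P2ry12 fell, at -0.37 (limma adjusted p = 0.0323), and 0 of 7 microglial and macrophage markers had a mean above 0, with a median of -0.17; all 6 markers other than Ptprc were above background on all 31 arrays. The summed microglial marker signal was 12.96 to 13.19 in Cy3 and 12.74 to 13.09 in Cy5 on the log2 scale. Of the neutrophil genes tested there, S100a8 and S100a9 rose, at 1.09 and 0.82, while Camp measured -0.43, -0.34 and 0.46 from the lowest to the highest array and was not called (mean -0.10, limma adjusted p = 0.718). Ngp was above background on 2 of 31 arrays in Cy3 and the other 3 on all 31; the summed neutrophil signal was 8.92 to 9.65 in Cy3 and 9.76 to 10.21 in Cy5. In MgHI at 3 h, where 8.94% of all tested genes were called, S100a9 and Camp were lower in Cy5, at -1.01 and -0.60. The value of S100a8 there is not given here. The part of these markers in the values of the immunoproteasome genes was not tested.

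In the alpha ring, through which substrates enter, 2 of 7 genes fell at 3 h of HI, where 8.71% of all tested genes were called lower. By their brightest probes all 7 had a mean below 0, and 45.1% of all tested genes had one above 0. The probes of Psma4 disagreed. Its brighter one averaged -0.05, and its second, nearly as bright, averaged 0.12 and was above 0 on every array (limma adjusted p = 0.614 and 0.285). Psma7 measured -0.30, -0.35 and -0.40, a mean of -0.35 ± 0.05 (SD, n = 3; limma adjusted p = 0.033). At 12 h it was lower still, at -0.48, -0.64 and -0.65, a mean of -0.59 ± 0.10 (SD, n = 3; limma adjusted p = 0.08). The 3 h and 12 h arrays did not overlap, but their difference of -0.24 was not called (limma adjusted p = 0.329). In MgHI, Psma7 lay on both sides of 0, at 0.07, 0.13 and -0.12 at 3 h and 0.09, 0.35 and -0.07 at 12 h. The difference of HI from MgHI was -0.37 (limma adjusted p = 0.0721) at 3 h and -0.72 (SE 0.16, unadjusted p = 0.00275, limma adjusted p = 0.0968) at 12 h, and the groups did not overlap at either time, but neither difference passed the test. With the sign of the MgHI ratios turned they were -0.33 and -0.47 (limma adjusted p = 0.0621 and 0.0894).

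Psma5 took another course. It measured -0.21, -0.30 and -0.31 at 3 h of HI, a mean of -0.27 ± 0.05 (SD, n = 3; limma adjusted p = 0.0493), and was no longer called with each array centred on its median (limma adjusted p = 0.0606). After 12 h it measured -0.50, -0.36 and -0.12. Unlike Psma7, it was also lower in Cy5 on all 6 MgHI arrays, at -0.28, -0.34 and -0.54 at 3 h (limma adjusted p = 0.0711) and -0.42, -0.35 and -0.35 at 12 h (limma adjusted p = 0.1). Of the other alpha genes, the mean at 3 h of HI ran from -0.19 (Psma3) to -0.03 (Psma6).

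The catalytic subunits of the constitutive beta ring were not called in HI. Psmb5, which carries the chymotrypsin-like site, measured 0.01, -0.17 and -0.03 at 3 h and 0.00, -0.11 and 0.03 at 12 h. Psmb6, with the caspase-like site, measured 0.06, -0.11 and -0.09 at 3 h and -0.18, -0.16 and -0.11 at 12 h, where all 3 arrays were below 0 (limma adjusted p = 0.414). Psmb7, with the trypsin-like site, measured -0.09, 0.09 and 0.00 at 3 h and -0.05, 0.13 and 0.09 at 12 h. In MgHI their means ran from -0.13 to 0.01. Under normexp and loess the mean of Psmb5 was 0.11 at 3 h and 0.18 at 12 h of HI and that of Psmb6 was 0.11 at 3 h, so that the signs of these small values depended on the background correction. The dimmer probe of Psmb5 disagreed with the brighter: it averaged -0.28 at 3 h of HI, past the threshold (limma adjusted p = 0.0454), and was negative on average in all 8 groups, against -0.07 to 0.16 for the brighter one.

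Of the rest of the beta ring, Psmb1 measured -0.68, -0.32 and -0.26 at 12 h of HI (limma adjusted p = 0.137). In MgHI it was 0.23, 0.29 and -0.11 at 3 h and -0.03, 0.23 and -0.08 at 12 h. Psmb2 and Psmb3 had means between -0.26 and -0.05 in the HI groups. None of the 7 was called in any group.

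Since Nfe2l1 and Nfe2l2 are known to act through antioxidant response elements of proteasome genes, the sequence from 250 bases before to 50 after each gene start was searched for the core of that element. Promoters from RefSeq (GRCm38.p6) matched 42 of the 50 members. The letters TGACNNNGC stood on either strand in 6 of 42 (14.3%; Psmb5, Psmb6, Psmc6, Psmd12, Psmd9 and Psme4), and in 14.0% of 27025 promoters of the same length, so that the share in the members was near the background. Those of Psmb5, Psmb6 and Psmd9 are shown because the first pair are the catalytic subunits just described and the last was called in MgHI; capitals mark the match, which lay 47 to 39, 9 to 1 and 31 to 23 bases before the start.
Psmb5, chr14:54618009-54618067, minus strand: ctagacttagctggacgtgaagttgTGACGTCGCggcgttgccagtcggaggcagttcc
Psmb6, chr11:70525323-70525356, plus strand: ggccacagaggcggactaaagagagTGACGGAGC
Psmd9, chr5:123228134-123228189, plus strand: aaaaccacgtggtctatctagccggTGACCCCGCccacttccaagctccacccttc

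None of these stretches held either of the other patterns searched. The core of the interferon-stimulated response element, GAAA and GAAA again after any 2 bases, stood in 5 of 42 members (11.9%; Psmb3, Psmd4, Psmd9, Psme1 and Psmg4) and in 3.99% of all promoters, and CCAAT in 16 of 42 (38.1%) and 41.1%. Of the 5 immunoproteasome genes, Psme1 held the interferon pattern and Psmb9 held CCAAT. A match is a description of the letters in this window.

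The regulatory particle gave no call in HI. The 6 ATPases, which drive unfolding, had a median of -0.09 at 3 h and 0.09 at 12 h of HI. Psmc5 was above 0 on all 6 HI arrays, at 0.10, 0.23 and 0.17 and at 0.19, 0.24 and 0.54, and Psmc3 below 0 on all 6, at -0.21, -0.27 and -0.15 and at -0.04, -0.27 and -0.38. Neither was called (limma adjusted p = 0.129 and 0.187 for Psmc5, 0.0821 and 0.293 for Psmc3). In the base, the ubiquitin receptor Psmd4 measured -0.23, -0.24 and -0.24 at 3 h of HI, just short of the threshold (limma adjusted p = 0.0576). With the MgHI ratios as labelled, it was below 0 on all 12 arrays of HI and MgHI.

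In the lid, the means of the 8 genes ran from -0.21 to 0.13 at 3 h of HI and from -0.30 to 0.30 at 12 h. The deubiquitinase Psmd14, which cuts the chain off the substrate, measured 0.01, 0.03 and -0.06 at 3 h and -0.65, 0.13 and 0.33 at 12 h, where the arrays disagreed. Psmd11, a scaffold of the lid, measured 0.24, 0.44 and 0.69 at 3 h of MgHI (limma adjusted p = 0.068) and -0.05, -0.08 and 0.03 at 3 h of HI. Psmd8 was higher in Cy5 on all 6 MgHI arrays, between 0.24 and 0.48 (limma adjusted p = 0.0788 and 0.148). No lid gene was called in any group.

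After MgSO4 alone, the members of the lid and base with 1 sign and the largest means were Psmd7, Psmd13 and Psmd2. Psmd7, the partner of Psmd14, measured -0.33, -0.36, -0.31 and -0.30 at 3 h, a mean of -0.32 ± 0.03 (SD, n = 4; limma adjusted p = 0.339). It stayed below 0 on all 19 arrays of MgSO4 (lowest -0.44, highest -0.01). Psmd13, another lid subunit, was also below 0 on all 19, with means of -0.28 at 6 h, -0.28 at 12 h and -0.31 at 24 h (limma adjusted p = 0.202, 0.314 and 0.375). Psmd2, the large base subunit, averaged -0.25 at 3 h (limma adjusted p = 0.5), and had arrays on both sides of 0 at the later times. Together with Psmb4, 3 of 48 members were lower on all 19 arrays, against 0.34% of 13218 genes. Of the 12 arrays of HI and MgHI, Psmb4 was above 0 on 0, Psmd7 on 1 and Psmd13 on 3. A dye effect of these probes and an effect of MgSO4 cannot be told apart, and directions at 6 h are not settled.

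Of the other differences within the MgSO4 time course, 0 of 48 members were called for 6 h against 3, 12 or 24 h or for 12 h against 3 h (0%, 0.00674%, 0% and 0% of all tested genes). At an unadjusted p under 0.05 there were 1, 1, 2 and 1, and 4.53%, 13.9%, 3.36% and 3.06% of all tested genes. For Psmb9 the arrays at 12 h measured -0.32, 0.05, -0.69 and -0.79 (limma adjusted p = 0.315). Psmb10, Psme1, Psme2, Psmb5, Psmb6 and Psmb7 had means between -0.28 and 0.16 in the 4 Mg groups, and none was called.

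Among the assembly chaperones, Psmg1 fell at 3 h of HI. It pairs with Psmg2 to place the alpha subunits in their ring. It measured -0.35, -0.40 and -0.38, a mean of -0.37 ± 0.03 (SD, n = 3; limma adjusted p = 0.029), and its dimmer probe gave -0.22 (limma adjusted p = 0.0729). By 12 h it measured -0.24, -0.34 and -0.33 (limma adjusted p = 0.168). In MgHI it lay between -0.19 and -0.01 on all 6 arrays. The 3 h arrays of HI did not overlap those of MgHI, and the difference was -0.23 (SE 0.09, limma adjusted p = 0.151). With the sign of the MgHI ratios turned it was -0.52, past the threshold (limma adjusted p = 0.00913).

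Psmg2 differed between HI and MgHI with the ratios taken as the labels give them, and not with those of MgHI turned. It measured -0.13, -0.16 and -0.15 at 3 h of HI (limma adjusted p = 0.147) and 0.42, 0.26 and 0.35 at 3 h of MgHI (limma adjusted p = 0.0818). The difference, added after the data had been seen, was -0.49 (SE 0.10, limma adjusted p = 0.0272), in a comparison in which 8.72% of 14836 genes, and 2 of 48 members, were called. At 12 h Psmg2 measured -0.00, -0.11 and -0.23 in HI and 0.21, 0.60 and 0.38 in MgHI, a difference of -0.51 (limma adjusted p = 0.135). The groups did not overlap at either time. With the sign of the MgHI ratios turned, the difference was 0.19 (limma adjusted p = 0.177) at 3 h and 0.29 (limma adjusted p = 0.235) at 12 h, so that both its sign and its call rested on the labelled direction. HI and MgHI arrays of equal number and time shared a slide, and with the replicate number as a block the call of Psmg2 held. What this difference compares depends on which sample the Cy3 channel of the MgHI arrays held. Of the other chaperones, Psmg4 measured -1.05, -0.68 and -0.24 at 12 h of HI (limma adjusted p = 0.108), a wide spread on 1 side of 0, and was called without replicate 3 (limma adjusted p = 0.00976).

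Psmf1, which binds the core and inhibits it, gave the other called difference. It measured 0.43, 0.48 and 0.55 at 3 h of MgHI, a mean of 0.49 ± 0.06 (SD, n = 3; limma adjusted p = 0.0325), and 0.08, 0.07 and 0.16 at 3 h of HI (limma adjusted p = 0.283). The difference of HI from MgHI was -0.38 (SE 0.10, limma adjusted p = 0.049), and it was lost with the replicate number as a block. With the sign of the MgHI ratios turned it was 0.59 (limma adjusted p = 0.00731), called in the other direction. At 12 h the MgHI arrays measured 0.58, 0.48 and 0.20 and the HI arrays 0.47, 0.37 and -0.20, and they overlapped. After MgSO4 alone Psmf1 was variable, from -0.74 to 1.26 over the 7 arrays at 6 h, and at 24 h it measured -0.56, -0.54, -0.00 and -0.24 (limma adjusted p = 0.408).

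Psmd9, a chaperone that holds ATPase subunits during assembly of the base, was called at 3 h of MgHI, where it measured 0.62, 0.49 and 0.33, a mean of 0.48 ± 0.15 (SD, n = 3; limma adjusted p = 0.0436). Its dimmer probe averaged 0.27 there (limma adjusted p = 0.13), and the mean of both probes was 0.38 (limma adjusted p = 0.0645). At 3 h of HI Psmd9 measured 0.20, 0.24 and 0.10 (limma adjusted p = 0.118). The arrays of HI and MgHI did not overlap at 3 h. All 3 arrays were below 0 at 12 h of HI, at -0.31, -0.03 and -0.09.

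With 3 arrays a group, most calls were lost in at least 1 fit that left an array out. Such a fit has fewer arrays and less power, so a lost call does not show that a single array drove it. For the fits with an array left out, the share of all tested genes called is not given here. Without replicate 1, 2 or 3 of HI at 3 h, 1 of 48 members was called each time, and it was Psme3; the adjusted p of Psma5, Psma7, Psmb8, Psme2 and Psmg1 then lay between 0.0645 and 0.178 (limma). In MgHI at 3 h, 6 members were called without replicate 1, 0 without replicate 2, and Psme3, Psmf1 and Psmd9 without replicate 3. The difference of HI from MgHI at 3 h gave 0 called members without any one of the 3 HI arrays or without MgHI replicate 2, 1 (Psmd11) without MgHI replicate 1, and 3 (Psma7, Psmb1 and Psmg2) without MgHI replicate 3. With a threshold of 1.5-fold added, 1 member, Psme3, was called at 3 h in HI (3.81% of all tested genes) and 1, again Psme3, in MgHI (5.47%).

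At 12 h, Psmb8 and Psme3 were called in HI without replicate 1, Psme3, Psma7 and Psmg4 without replicate 3, and 0 without replicate 2; in MgHI, Psme3 was called without replicate 3. Psmc3ip, named for its binding to a base ATPase, had after Psme3 the largest mean of 1 sign at 12 h of MgHI, at -0.34, -0.46 and -0.58 (limma adjusted p = 0.0892). Psme3ip1, the partner of Psme3, was above 0 on all 12 arrays of HI and MgHI, with the MgHI ratios as labelled. So were Psme3 and 3.66% of all tested genes. At 12 h of HI Psme3ip1 measured 0.32, 0.30 and 0.25 (limma adjusted p = 0.181).

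**Figure D4:**
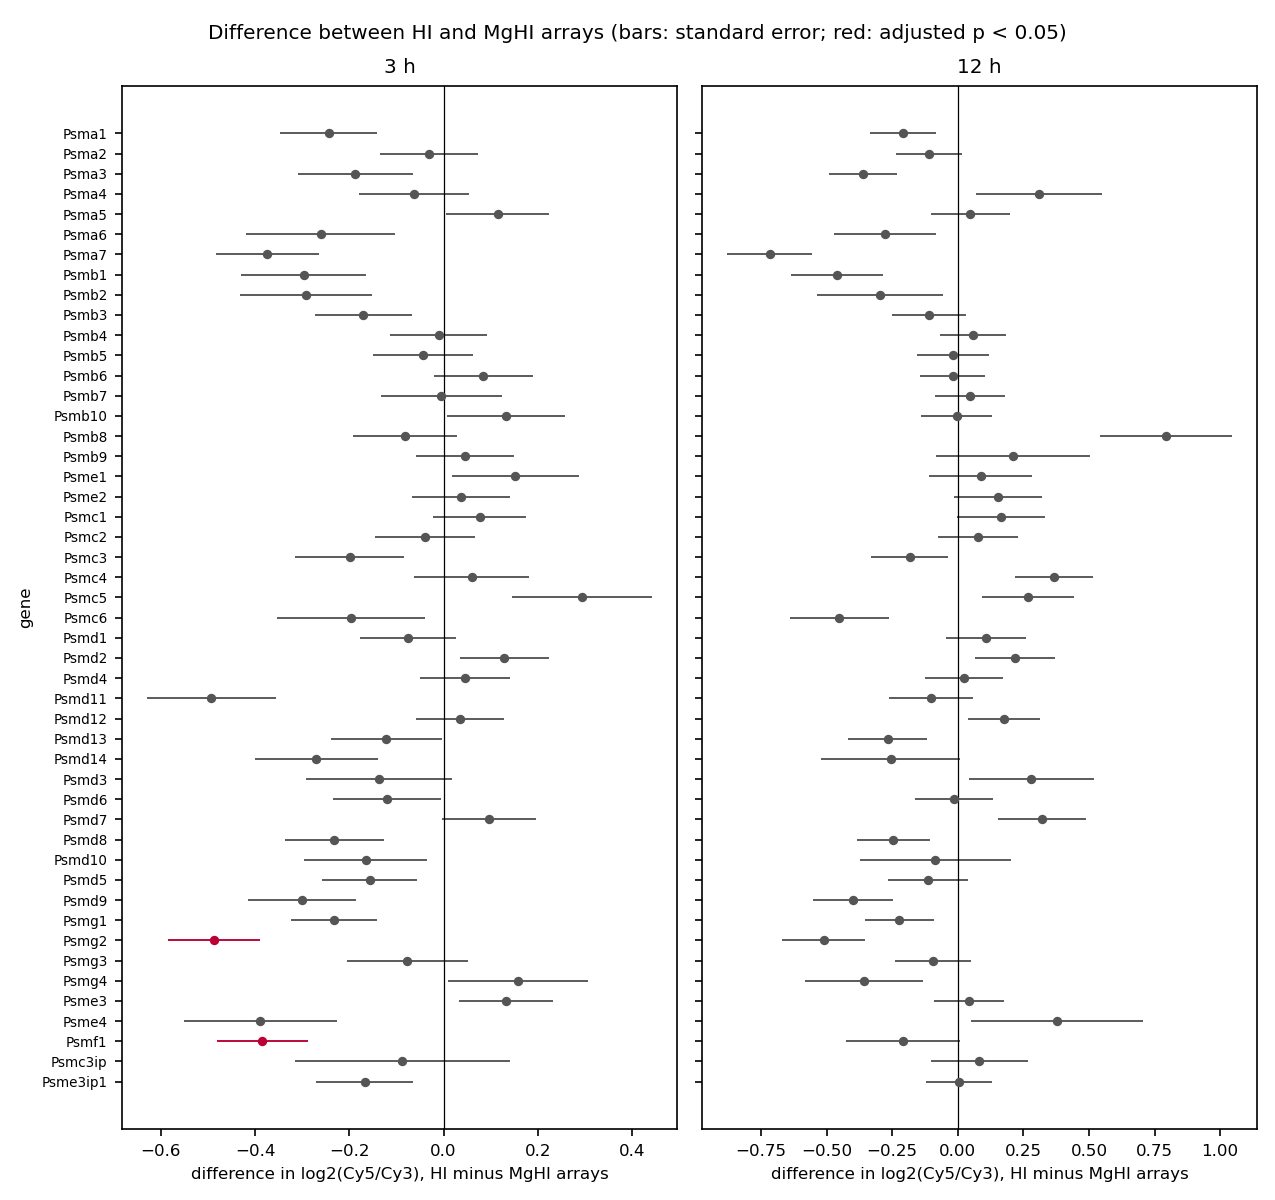
Difference between the mean log2(Cy5/Cy3) of the HI and the MgHI arrays for the 48 tested members (rows) at 3 h (left) and 12 h (right), with the standard error as a bar and the called members in red. At 3 h Psmg2 (-0.49) and Psmf1 (-0.38) are red and 33 of 48 members lie below 0, and at 12 h none is red and 26 lie below 0. The share of all tested genes below 0 is not given for these, so the counts are no result about the members. The MgHI ratios are plotted as labelled. With their sign turned, which the plot does not show, Psmg2 at 3 h is at 0.19 and not called, and Psmf1 is at 0.59 and called. With the sign so turned, 31 of 48 members at 3 h and 24 at 12 h lie below 0. Of all tested genes, 44.8% at 3 h and 50.4% at 12 h then lie above 0, so that the count at 12 h is near the background.

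With the MgHI ratios turned, 15 of 48 members were called at 3 h, 6 higher and 9 lower in HI, where 26.3% of all tested genes were, and 6 of 48 at 12 h, 2 higher and 4 lower (12.6%). At 3 h the higher ones were Psme3, Psmf1, Psmd5, Psmd8, Psmd9 and Psme3ip1, and the lower ones Psma5, Psmb4, Psmb8, Psmb10, Psmc1, Psmd4, Psmd7, Psme2 and Psmg1. As with Psme3, a dye effect of a probe would not drop out of these values.

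The Cy3 channel was also compared by itself, with log2 Cy3 signals centred on the 75th percentile of each array. The Cy3 samples of the MgHI arrays were set against the Cy3 controls of the HI and Mg arrays of the same time. No member was called at 3 h or at 12 h (limma; 0.425% and 0.0348% of all tested genes). At 12 h, 17 of 48 were lower at an unadjusted p under 0.05 (15.8% of all tested genes were), and their median difference was -0.44 against 0.02 for all tested genes. The largest was that of Psma7, at -1.06 (SE 0.31, limma adjusted p = 0.121). The constitutive median on this scale was 3.80 to 4.00 on the 3 MgHI arrays at 12 h, 3.95 to 4.19 on the 3 HI arrays of the same scan day and 4.08 to 4.47 on the 4 Mg arrays, which were scanned on other days. The MgHI arrays overlapped those of the same scan day and lay below the others.

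Of 7 regulators of the proteasome genes, Ddi2 rose and Ngly1 fell at 3 h of HI, where 14.9% of all tested genes were called. Values are given from the lowest to the highest array. Ddi2, the protease that releases Nfe2l1, measured 0.54, 0.61 and 0.64 (limma adjusted p = 0.0162). Ngly1, the enzyme that strips the sugar chains from Nfe2l1 on its way to activity, measured -0.68, -0.56 and -0.54 (limma adjusted p = 0.0168). The other 5 were not called. Nfe2l1 itself measured -0.17, 0.16 and 0.20 and Nfe2l2, the other factor of its family, -0.53, 0.13 and 0.56, both on either side of 0. Akirin2, which carries proteasomes into the nucleus, averaged 0.09 (limma adjusted p = 0.329).

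At 3 h of MgHI, 3 of the 7 regulators were called, against 8.94% of all tested genes. Sqstm1, a shuttle of ubiquitinated proteins to autophagy, was higher in Cy5, with a mean of 1.11 and a middle value of 1.12 (limma adjusted p = 0.00768), and so was Keap1, the adaptor that marks Nfe2l2 for destruction, at 0.38, 0.48 and 0.77 (limma adjusted p = 0.0397). Ddi2 was lower in Cy5, at -0.62, -0.54 and -0.48 (limma adjusted p = 0.0244), and its difference between HI and MgHI was 1.15 (SE 0.10, limma adjusted p = 0.00549) as labelled, but 0.05 (SE 0.10, limma adjusted p = 0.748) with the sign of the MgHI ratios turned. Nfe2l1 measured 0.20, 0.45 and 0.46 there (limma adjusted p = 0.0812). At the later time, 0 of 7 regulators were called in HI and 0 of 7 in MgHI, with 3 and 2 at an unadjusted p under 0.05, as were 27.9% and 24.2% of all tested genes.

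Of 9 assembly partners and accessory proteins on the array, 1 was called at 3 h of HI, where 14.9% of all tested genes were. Txnl1, a thioredoxin-like protein bound to the lid, fell there, at -0.28 (limma adjusted p = 0.0455). Pomp, which matures the core, measured -0.20, -0.18 and -0.08 (limma adjusted p = 0.153) and was not called. Of 17 genes of ubiquitin, its ligases and its shuttles, 1 was called at 3 h of HI, against the same 14.9%. This was Ubqln2, which rose, at 0.41 (limma adjusted p = 0.0303). At 3 h of MgHI, 2 of the 17 were called, against 8.94% of all tested genes. The ligase Ube3a (0.68, limma adjusted p = 0.0212) and the polyubiquitin gene Ubb (0.57, limma adjusted p = 0.0317) were higher in Cy5. The median of these 17 genes was 0.12 at 3 h and 0.21 at 12 h of HI, against -0.03 and 0.00 for all tested genes. Such a shift was not particular to HI. After MgSO4 alone the median was 0.02, 0.02, 0.26 and 0.10 at 3, 6, 12 and 24 h (16 tested at 6 and 24 h). All tested genes had -0.01, -0.00, 0.02 and -0.01 there. In MgHI the median of the 17 was 0.02 at 3 h and 0.13 at 12 h, against -0.04 and -0.01.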

How the data were processed

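RNA from 31 pairs of pools was hybridised to 2-colour Agilent arrays, and the authors deposited the scanner output of each array with processed Cy3 and Cy5 signal intensities, which Agilent Feature Extraction 10.5.1.1 had background-subtracted and dye-normalised (per the labels' processing notes). A deposited table of log10 ratios served as an alternative: its medians and values followed the scanner's own log ratio of Cy5 over Cy3. Of 39429 probes, 27421 (69.5%) had 1 symbol through their RefSeq accession; 930 symbols with Rik were left out. Spots with outlier flags and control spots were dropped and spots of a probe averaged. Probes entered a test where 66.7% or more of the group's arrays showed them well above background in Cy3 or Cy5. Each member is given by its brightest probe, and 11 members had more than 1 probe. Log2 ratios were tested against 0, or between groups, with limma 3.58.1 in R 4.3.3 (lmFit and eBayes), with Benjamini-Hochberg adjustment over all tested probes and a threshold of 0.05; tables were made with Python 3.11.15 and pandas 2.3.3. The scripts were tested on simulated data.

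The members and the lists were chosen with earlier results of these data known. Members named were those called in a comparison, the 3 largest of 1 sign, the immunoproteasome genes and Psmb5, Psmb6 and Psmb7; of the pathway lists, the genes called and Nfe2l1, Nfe2l2 and Pomp. Psma3, Psma6, Psmb1 to Psmb4, Psmc3, Psmc5, Psmd4, Psmd8, Psmd11, Psmd14, Psme3ip1, Tap2 and Akirin2, and some values of the other members, were chosen after the values were seen. Alternatives were normexp (offset 50) with loess, the deposited table, no filter or a stricter filter on dim probes, median centring, outlier spots kept, the mean of a member's probes, slide or replicate number as a block, the methods' t-test, a fold threshold, each array left out and, added after the data were seen, the sign of the MgHI ratios turned in HI minus MgHI. Same-numbered arrays of HI and MgHI shared a slide and deviated together at 3 h (r = 0.23 to 0.37 over probes), whereas numbers shared between times did not pair the arrays (r from -0.50 to 0.71).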

Additional observations from a re-analysis of the deposited data

Results flagged for a closer look

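In 47 sets of 4 to 7 arrays that were examined, 2 held an array far from the rest, and chance alone gives about 1 in 20. Psme3 was highest on replicate 2 at 3 h of MgSO4, at 0.96 against 0.66 to 0.71 on the others. Psme2 was highest on replicate 1 at 24 h of MgSO4, at 0.25 against -0.07 to -0.03 on the others. Neither member was called in that group (limma adjusted p = 0.183 and 0.935).

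For 2 members the ratio at 3 h differed between HI and MgHI by a test of the difference itself: Psmg2 by -0.49 (limma adjusted p = 0.0272) and Psmf1 by -0.38 (limma adjusted p = 0.049). For Psmg2 all 3 HI arrays were below 0 and all 3 MgHI arrays above it. For Psmf1 all 6 arrays were above 0. Neither difference was called at 12 h. With the sign of the MgHI ratios turned, since their direction is not settled, the difference at 3 h was 0.19 for Psmg2 (limma adjusted p = 0.177) and 0.59 for Psmf1 (limma adjusted p = 0.00731).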

How the results depend on the processing

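Over 20 counts of called members, 260 of 301 alternatives left the count within 1.5 times. Turning the sign of the MgHI ratios gave 15 called members for HI minus MgHI at 3 h and 6 at 12 h, and turned the signs of the differences of Psmg2 (-0.49 to 0.19) and Psmf1 (-0.38 to 0.59). No called log2 ratio of a group changed sign under any alternative run, but uncalled ones near 0 did, by more than the SD between arrays for Psmb5, to 0.11 and 0.18 at 3 and 12 h of HI under normexp and to -0.04, -0.05 and -0.14 at 3, 6 and 12 h of MgSO4 as the mean of its probes, and for Psmb6, to 0.11 at 3 h of HI under normexp. Background correction by normexp with loess gave more calls: 1 (Psme3) at 3 h of MgSO4, 12 at 3 h of HI, 12 at 3 h of MgHI, 2 at 12 h of HI, 6 at 12 h of MgHI, 4 for HI minus MgHI at 3 h and 2 for HI minus MgSO4 at 12 h. Without a filter on dim probes the counts were 0 at 3 h of HI, 1 at 3 h of MgHI and 0 for HI minus MgHI at 3 h, and a stricter filter gave 1 at 12 h of HI. The methods' t-test gave, unadjusted, 10, 8, 6 and 7 at 3, 6, 12 and 24 h of MgSO4, 21 and 10 at 3 and 12 h of HI and 16 and 11 at 3 and 12 h of MgHI, and after adjustment 0 at 3 h of HI and 0 at 3 h of MgHI. The 1.5-fold rule gave 1 at 3 h of HI and 1 at 3 h of MgHI. With median centring 1 member was called for HI minus MgHI at 3 h. Leaving out 1 array gave 1 call at 3 h of HI each time, 0 to 6 at 3 h of MgHI, 0 to 3 at 12 h of HI, 0 to 1 at 12 h of MgHI and 0 to 3 for HI minus MgHI at 3 h. For normexp, the filters, median centring and the fits with an array left out, the share of all tested genes called is not given here. Those counts are therefore no result about the members as a set. The cause of these changes was not tested.

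With the replicate number as a block, 1 member (Psmg2) was called for HI minus MgHI at 3 h and 1 (Psmb8) at 12 h. The share of all tested genes called with this block is not given here, so these counts are no result about the members as a set. The block left 0 called in each of the 6 differences between time points, where the numbers did not pair the arrays, and for HI minus MgSO4, and changed no other call.

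The constitutive median at 3 h of HI (-0.0838) was -0.0622 with median centring and -0.1029 to -0.0831 with 1 array left out. At 12 h of HI (-0.0563) it was -0.001 under normexp and -0.0763 to -0.0037 with 1 array left out, the last without replicate 1. In 82 of 87 alternatives the medians moved by less than the spread between arrays. Slide as a random block could not be fitted in the HI and MgHI groups of 3 arrays and was not run at 12 and 24 h of MgSO4, where each slide held 1 array of the group.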
